A study of Mus musculus with 4 samples.

Results

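Hepatoblasts, the bipotent liver precursors of the fetus, are kept in their identity by a small set of transcription factors, and 8 of these were examined in fetal livers of dams fed either of 2 diets. They were Hnf4a, Nr5a2, Foxa1, Foxa2, Foxa3, Prox1, Onecut1 and Cebpa. The genes were chosen by name, and every non-control probe of the array whose annotated transcript belongs to one of them was used. This gave 9 probes for 8 genes, out of 22911 gene symbols on the array. Hnf4a had 2 probes and each of the other genes had 1.

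The livers came from fetuses collected in mid-gestation. The dams were C57BL/6J mice fed during gestation either a control diet (CD; 4.3% of kcal from fat, 19.2% from protein and 67.3% from carbohydrate) or a high-fat diet (HFD; 60% of kcal from fat, 20% from protein and 20% from carbohydrate). The labels name no allele or agent other than the diet. Each group held 2 arrays, described by the submitters as biological replicates, on which Cy3-labelled cRNA of whole fetal liver was read in 1 colour. The sources do not say whether the 2 livers of a group came from separate dams or from pools, so the p-values measure the spread between these arrays. The labels give the sex as female without saying whether this refers to dam or fetus.

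In textbook accounts these factors bind one another's genes and those of the proteins the liver secretes. The FOXA proteins open chromatin at liver genes before other factors bind, HNF4A is a nuclear receptor needed for the epithelial and metabolic program of the hepatocyte, and PROX1 and ONECUT1 act in the outgrowth of the liver bud and in the choice between hepatocyte and bile duct fates. CEBPA drives hepatocyte maturation, and NR5A2 regulates genes of cholesterol and bile acid handling.

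Since these factors act on one another's genes, the sequence before each transcription start was searched for their motifs. RefSeq (GRCm38.p6) promoter windows were found for all 8 genes, with 13 starts in all, and the 250 bases before each start were searched on both strands for short core motifs. The search covered CAAAGTCCA for HNF4A, TGTTTAC for FOXA, ATTGATT for ONECUT, TTGCNNAAT for CEBPA, CAAGGTCA for NR5A2 and TATAAAA for a TATA box. The ONECUT motif was found upstream of 2 of the 13 starts, 1 of Hnf4a and 1 of Foxa2, against 2.61% of 32851 windows over all genes. The FOXA motif was found at 1 start of Foxa1 (3.17% of all windows). The HNF4A, CEBPA and NR5A2 motifs were in none of the 13 windows and in 0.384%, 2.11% and 1.33% of all windows. The TATA box motif was in 4 of the 13 windows, those of Cebpa, Foxa3, Prox1 and a start of Foxa2, against 4.98% of all windows. It lay between 36 and 24 bases before the start for Cebpa, Foxa3 and Prox1, and 209 to 203 bases before it for Foxa2. No matches overlapped one another. A match says that the letters are in this window and not that a factor binds there, and a window without a match says nothing of the factor.

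Hnf4a is the gene of this set known for a pair of promoters, an upstream promoter (P2) and a downstream promoter (P1) that predominates in adult liver. Both Hnf4a probes carry the same transcript annotation, and the probe sequences were not used here, so the levels below are not assigned to either promoter. The upstream windows of both starts are shown because they differ in the ONECUT motif, together with the Foxa2 start that holds it. Capitals mark the motif, and each sequence is written 5′ to 3′ on the strand of the gene.
Hnf4a, upstream start, chr2:163506607-163506856, plus strand: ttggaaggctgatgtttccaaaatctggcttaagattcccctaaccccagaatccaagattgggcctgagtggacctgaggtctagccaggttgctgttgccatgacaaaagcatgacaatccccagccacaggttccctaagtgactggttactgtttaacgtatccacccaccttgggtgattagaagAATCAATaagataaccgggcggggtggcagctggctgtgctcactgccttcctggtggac
Hnf4a, downstream start, chr2:163546905-163547154, plus strand: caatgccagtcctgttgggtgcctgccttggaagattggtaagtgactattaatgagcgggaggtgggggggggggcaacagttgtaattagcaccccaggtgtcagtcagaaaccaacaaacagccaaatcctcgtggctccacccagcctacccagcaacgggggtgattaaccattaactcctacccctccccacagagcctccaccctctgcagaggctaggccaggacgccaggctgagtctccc
Foxa2, chr2:148046970-148047219, minus strand: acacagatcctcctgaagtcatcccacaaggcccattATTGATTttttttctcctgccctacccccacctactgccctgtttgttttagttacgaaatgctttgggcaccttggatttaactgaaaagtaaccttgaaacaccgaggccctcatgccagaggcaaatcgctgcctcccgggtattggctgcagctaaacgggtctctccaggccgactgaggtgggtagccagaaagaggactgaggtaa
The motif AATCAAT in the upstream Hnf4a window is ATTGATT read on the other strand, and lies 60 to 54 bases before the start. In the Foxa2 window ATTGATT lies 213 to 207 bases before the start. No searched motif was found in the window of the downstream Hnf4a start.

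On all 4 arrays the 9 probes were well above background, and all passed the filters on low and variable signal. Levels are given as the log2 intensity relative to the 75th percentile of the array, so that 0 is the brightness of a probe at that percentile and a difference of 1 is 2-fold. Because probes differ in how brightly they bind, levels are compared between arrays and not between genes. Over all non-control spots, 65.4% to 70.0% were well above background on each array. The CD pair was less alike than the HFD pair, with an SD of the array difference over probes of 0.58 against 0.34 (log2).

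None of the 8 factors passed the cutoffs for a change between the diets (at least 2-fold, with an unadjusted p under 0.05). No member probe reached an unadjusted p of 0.05 in limma either, and the adjusted p was 1.00 for each. Over all 41332 probes tested, 0.769% passed both cutoffs, 3.34% had an unadjusted p below 0.05, and none had an adjusted p below 0.05. Differences between HFD and CD ran from -0.16 (Onecut1) to 0.34 (Hnf4a), 6 positive and 2 negative, with a median of 0.16. Over the 18192 genes tested the median difference was 0.04, with quartiles of -0.10 and 0.17. The 95% intervals of all 8 members lay between -0.91 and 0.77, that is, within 2-fold in either direction, as did those of 74.0% of all probes. That bound rests on all 4 arrays and on limma's pooling of the spread over probes. Under the methods' t-test 6 of the 8 intervals stayed within 2-fold (bounds -1.78 to 1.56), and in limma 6, 8, 3 and 0 did so when CD 1, CD 2, HFD 1 or HFD 2 was left out. In whole liver, a difference in the share of hepatoblasts and one in mRNA per hepatoblast cannot be told apart, in either direction.

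**Figure D1:**
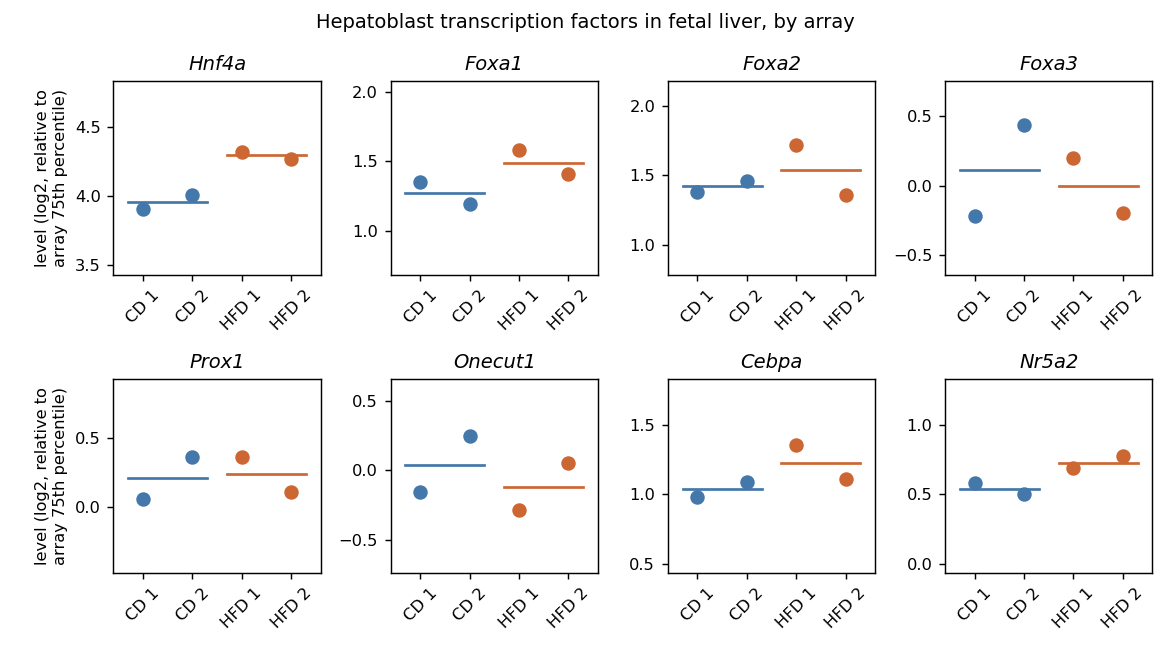
Level of each factor on each array (log2, relative to the 75th percentile of the array), with CD arrays in blue, HFD arrays in orange and the group means as lines. Every panel spans the same range of log2 units, and both HFD points lie above both CD points for Hnf4a, Foxa1, Cebpa and Nr5a2.

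Among the nuclear receptors, Hnf4a had the largest difference of the 8 genes. Its brighter probe read 3.91 and 4.01 with CD and 4.32 and 4.27 with HFD. Both HFD values were above both CD values, and the arrays within each group were close, with an SD of 0.07 for CD and 0.03 for HFD (n = 2). The difference was 0.34 ± 0.16 (SE; 1.26-fold, 95% interval 0.94 to 1.70; limma adjusted p = 1.00). The methods' t-test on the same values gave an unadjusted p below 0.05, as did limma after normexp background correction followed by quantile normalization. The dimmer Hnf4a probe read -3.80 and -3.81 with CD and -3.93 and -3.59 with HFD. Its groups overlapped and its difference was 0.04 ± 0.19 (SE; 95% interval -0.47 to 0.56; limma adjusted p = 1.00). With the mean over both probes the difference of Hnf4a was 0.19. The 2 probes thus gave different point estimates, while the interval of each held the estimate of the other.

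Nr5a2, the receptor tied to bile acid synthesis, read 0.58 and 0.50 with CD and 0.69 and 0.78 with HFD. The groups did not overlap. The difference was 0.19 ± 0.16 (SE; 1.14-fold, 95% interval 0.85 to 1.54; limma adjusted p = 1.00).

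The forkhead factors gave differences of both signs. Foxa1 read 1.35 and 1.19 with CD and 1.58 and 1.41 with HFD, without overlap. The difference was 0.22 ± 0.18 (SE; 1.17-fold, 95% interval 0.84 to 1.61; limma adjusted p = 1.00). After quantile normalization, with or without normexp background correction before it, the Foxa1 groups overlapped. Foxa2, the member of the family most studied as a pioneer factor of endoderm, read 1.38 and 1.46 with CD and 1.72 and 1.36 with HFD. The HFD arrays lay on either side of the CD arrays, and the difference was 0.12 ± 0.20 (SE; limma adjusted p = 1.00). Foxa3, known for its abundance in adult liver, read -0.22 and 0.44 with CD and 0.20 and -0.20 with HFD. Its 2 CD arrays were 0.67 apart, the widest gap between CD arrays of the 8 genes. The difference was -0.11 ± 0.30 (SE; 95% interval -0.91 to 0.69; limma adjusted p = 1.00). Its sign turned when CD 2 (0.22) or HFD 2 (0.09) was left out, and that of Foxa2 turned without HFD 1 (-0.06).

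The homeobox factors had overlapping groups. Prox1, which marks hepatoblasts as they leave the liver bud and is also expressed in lymphatic endothelium, read 0.06 and 0.36 with CD and 0.36 and 0.11 with HFD. The difference was 0.03 ± 0.20 (SE; 1.02-fold, 95% interval 0.70 to 1.48; limma adjusted p = 1.00). Onecut1, also called HNF6, read -0.16 and 0.25 with CD and -0.29 and 0.05 with HFD. The difference was -0.16 ± 0.24 (SE; 0.89-fold, 95% interval 0.58 to 1.38; limma adjusted p = 1.00). For both genes the gap between the 2 CD arrays (0.30 for Prox1 and 0.41 for Onecut1) was wider than the difference between the diets. Prox1 turned to -0.12 without CD 1, to -0.10 without HFD 1 and to -0.02 after normexp background correction. Onecut1 turned to 0.04 without CD 2 and lay at 0.00 without HFD 1.

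Cebpa, the basic leucine zipper factor of hepatocyte maturation, read 0.98 and 1.09 with CD and 1.36 and 1.11 with HFD. The groups did not overlap, though HFD 2 was only just above CD 2. The difference was 0.19 ± 0.18 (SE; 1.14-fold, 95% interval 0.82 to 1.60; limma adjusted p = 1.00).

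In all, both HFD arrays were above both CD arrays for 4 of the 8 genes (Hnf4a, Foxa1, Cebpa and Nr5a2) and below for 0. Of all tested probes, 19.5% had both HFD arrays above and 11.1% had both below. With 2 arrays in each group an exact permutation test cannot give a two-sided p below 0.33, so this arrangement is a description. Within each group, most members differed between the 2 arrays in the same direction. Between the CD arrays, 6 of the 8 genes were higher on CD 2, and between the HFD arrays, 6 of the 8 were higher on HFD 1. The highest of the 4 arrays was HFD 1 for 5 genes, CD 2 for 2 and HFD 2 for 1, while the lowest was CD 1 for 4 genes, CD 2 for 2 and HFD 1 and HFD 2 for 1 each.

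**Figure D2:**
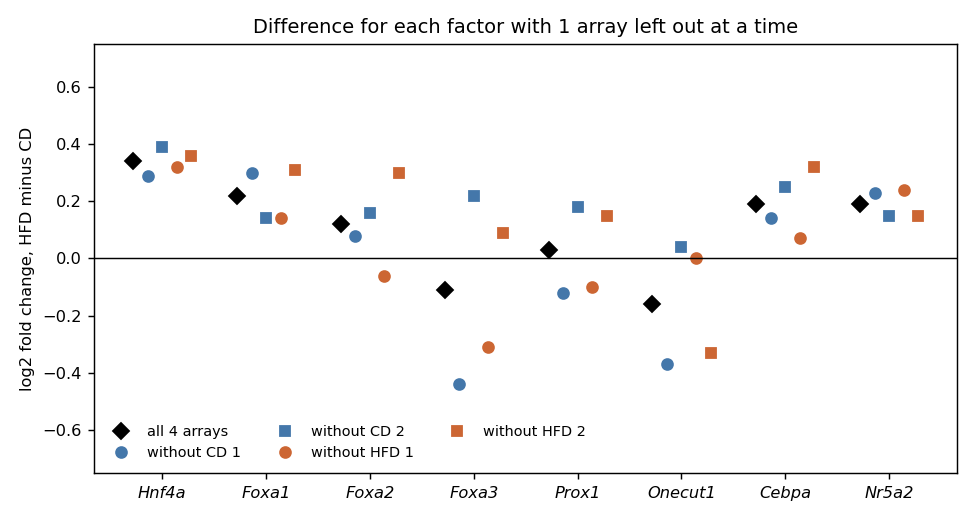
Difference between HFD and CD (log2) for each factor with all 4 arrays (black) and with 1 array left out at a time. The points of Hnf4a, Foxa1, Cebpa and Nr5a2 stay above 0, whereas those of Foxa2, Foxa3, Prox1 and Onecut1 fall on or on both sides of it.

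The brightness and the diet difference of the members were set beside all tested probes. The median absolute difference between diets was 0.18 for the members and 0.14 for all genes. The median absolute gap between the CD arrays was 0.14 for the members and 0.32 for all genes, and that between the HFD arrays was 0.25 and 0.10.

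**Figure D3:**
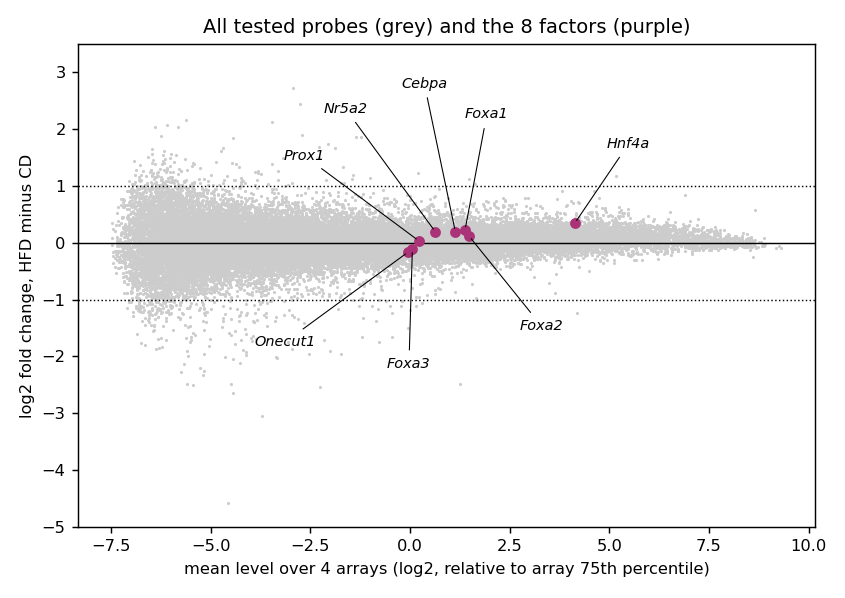
Difference between HFD and CD (log2) against the mean level over the 4 arrays for the 41332 probes tested (grey), with the brightest probe of each of the 8 factors in purple and dotted lines at a 2-fold change. The factors lie between -0.16 and 0.34, inside the dotted lines.

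The genes whose levels followed the factors most closely over the 4 arrays were sought by Pearson correlation with the members' median level relative to each gene's mean. That median was -0.14 and -0.03 with CD and 0.17 and 0.00 with HFD. Among 12068 genes well above background on every array, and varying at least as much, the closest were Tslrn1 (r = 1.00), Rhox5, 2300009A05Rik, Selenof and Alpl (r = 0.998), and 25 genes had r above 0.99. With only 4 points, which share their arrays and scaling, such values are descriptions. The range over the arrays was wider for Tslrn1 (-0.82 to 0.97) and Rhox5 (-0.48 to 0.62) than for the factors, and similar to theirs for Selenof (-0.17 to 0.20).

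Other transcription factors of the hepatic network likewise held no gene past both cutoffs. All 25 were tested, with a median difference of 0.13 and a range from -0.55 to 0.55, and 21 of the 25 intervals lay within 2-fold. The 3 with the highest signal were Xbp1, a factor of the secretory pathway, Rxra, the partner of many nuclear receptors, and Creb3l3, a factor of hepatic lipid metabolism. Xbp1 read 4.95 and 4.92 with CD and 5.12 and 5.09 with HFD (difference 0.17 ± 0.16, SE). Rxra read 4.54 and 4.51 with CD and 4.63 and 4.54 with HFD (0.06 ± 0.16, SE), and Creb3l3 read 2.77 and 3.37 with CD and 3.27 and 3.14 with HFD (0.13 ± 0.26, SE). Relatives from the same gene families gave 0.22 ± 0.16 for Cebpb, 0.22 ± 0.20 for Cebpd, -0.05 ± 0.16 for Cebpg, -0.15 ± 0.18 for Onecut2 and 0.32 ± 0.27 for Hnf4g (difference ± SE). These relatives were named after their values were seen. At an unadjusted p of 0.05 alone, 2 of the 25 passed in limma, Nr0b2 upwards and Zhx2 downwards. Nr0b2 was not well above background on any array, and Zhx2 was so on 3.

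**Figure D4:**
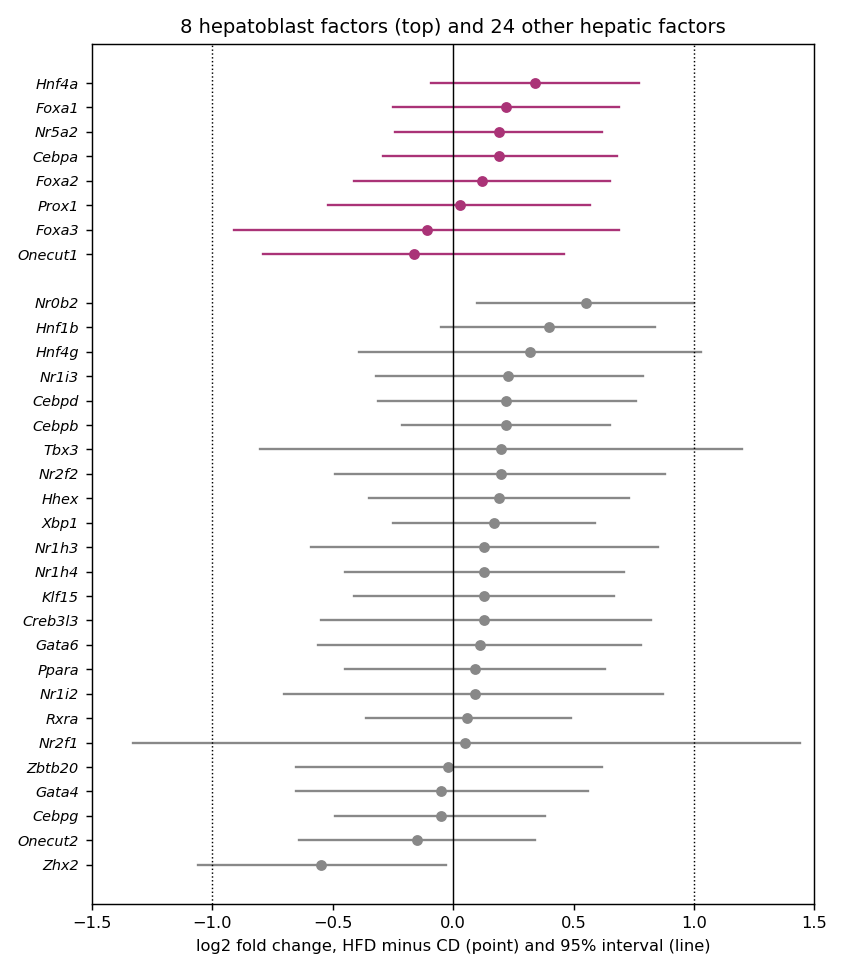
Difference between HFD and CD (log2, points) with its 95% interval (lines) for the 8 hepatoblast factors (purple) and 24 of the 25 other hepatic factors (grey), ordered by size, with dotted lines at a 2-fold change. The intervals of all 8 hepatoblast factors cross 0 and stay inside the dotted lines.

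The proteins that hepatoblasts and young hepatocytes make gave a second readout of these cells, and none of the 36 passed both cutoffs. Their median difference was 0.02, with 27 of the 36 intervals within 2-fold. Alb, the main plasma protein, read 8.14 and 9.06 with CD and 8.53 and 8.54 with HFD (difference -0.07 ± 0.34, SE). Afp, its fetal counterpart, read 8.32 and 8.82 with CD and 8.49 and 8.63 with HFD (-0.01 ± 0.24, SE), and Serpina1a, whose near-identical copies may share signal, read 8.30 and 8.93 with CD and 8.59 and 8.64 with HFD (0.00 ± 0.26, SE). For all 3 the CD arrays lay on either side of the HFD arrays. Of the 36 products, 32 were higher on CD 2 than on CD 1, with a median gap of 0.69, whereas for the 8 factors the median gap was 0.10 and for the 25 other factors -0.02. The gap was not particular to the products. It was 0.47 for 15 erythroid, 0.73 for 12 myeloid and -0.66 for 10 cholangiocyte markers, and its cause was not tested. The iron hormone gene Hamp read -2.52 and -1.96 with CD and -1.16 and -1.54 with HFD, a difference of 0.89 ± 0.28 (SE) that was under the fold cutoff (limma adjusted p = 1.00). It passed both cutoffs without CD 2 (1.17) and without HFD 2 (1.08), and the gluconeogenic gene Pck1 did so without CD 2 (1.14) and without HFD 1 (1.04), against 0.77 ± 0.35 (SE) with all arrays.

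**Figure D5:**
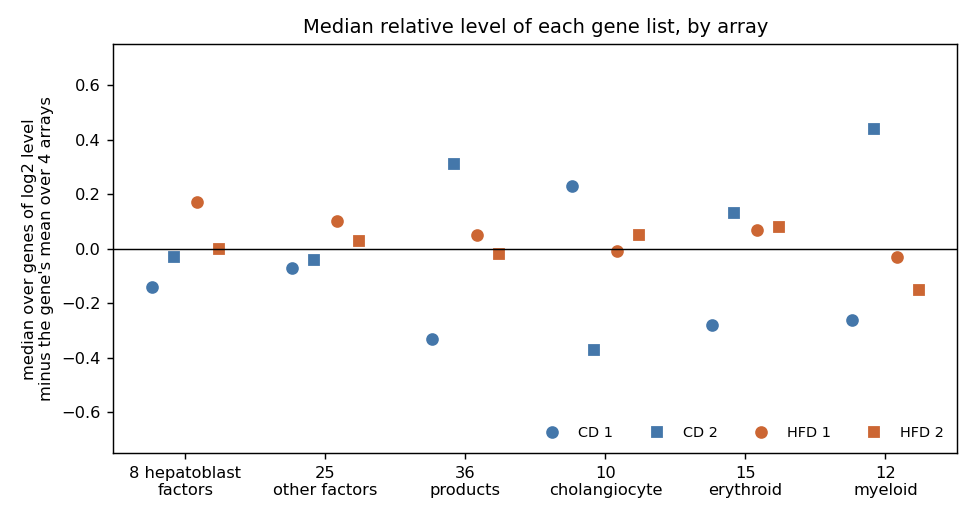
Median over the genes of each list of the log2 level minus the gene's own mean over the 4 arrays, for CD (blue) and HFD (orange) arrays, with circles for replicate 1 and squares for replicate 2. For the 36 products CD 1 (-0.33) and CD 2 (0.31) lie apart with both HFD arrays between them, while for the 8 factors the arrays run from -0.14 to 0.17.

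Genes reported as direct targets of single factors were grouped by factor, and the groups share some genes. Of 10 targets of HNF4A, 1 rose past both cutoffs and the median difference was 0.11. Of 6 FOXA targets and 7 CEBPA targets, 0 passed, with medians of -0.04 and 0.07. Of 8 NR5A2 targets, 7 were tested, 1 rose past both cutoffs and the median was 0.26. The gene that rose was the same in both lists, Cyp7a1, which encodes the rate-limiting enzyme of bile acid synthesis from cholesterol. Cyp7a1 read -6.33 and -6.93 with CD and -4.78 and -5.41 with HFD. In both CD livers its signal was not well above background (limma adjusted p = 1.00 on the values as read). Each CD array was therefore set to the lowest level of any probe well above background on it. Against these levels HFD was 1.62-fold higher, which is not a strict lower bound. Cyp8b1, the other bile acid enzyme among the NR5A2 targets, was not well above background on any array. The brightest NR5A2 targets were Apoa1 (difference 0.31 ± 0.18, SE), the cholesterol receptor gene Scarb1 (0.23 ± 0.20, SE) and Cel (-0.52 ± 0.46, SE). The brightest HNF4A targets were Apoa2 (0.06 ± 0.23, SE), Apom (0.02 ± 0.24, SE) and Ttr (-0.09 ± 0.37, SE), and Ttr, Alb and Afp were also the brightest FOXA targets. The glycogen synthase gene Gys2 (0.26 ± 0.23, SE) was among the brightest CEBPA targets, with Alb and Hamp.

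Markers of other cell types were read for what else the livers held. Fetal liver is a blood-forming organ, and 15 erythroid, 12 myeloid and 10 lymphatic and sinusoidal endothelial markers all gave signal well above background on every array, as did 10 cholangiocyte markers, with 0 past both cutoffs in each list and median differences of 0.17, -0.19, 0.04 and 0.03. The summed level of the erythroid list (linear, relative to the 75th percentile) was 1495 and 2142 with CD and 1728 and 1863 with HFD, and that of the 8 factors was 26.5 and 28.5 with CD and 33.7 and 31.4 with HFD. In such linear sums a single bright probe can make up most of the value, as Hnf4a does for the 8 factors. The same holds for Eya1 in the kidney sums below and for Gcm1 in the trophoblast sums on CD 1 and both HFD arrays. It also holds for Foxl2 in the gonad and adrenal sums on CD 1, CD 2 and HFD 1. Markers of tissues near the liver were also detected and differed more. Trophoblast markers had a median relative level of 1.00 and 2.85 with CD and -0.95 and -2.61 with HFD, and a summed level of 67.3 and 76.9 with CD and 47.8 and 50.5 with HFD. Of the 15, 11 had signal well above background on every array and 5 passed the filters, 0 of them past both cutoffs. That 0 cannot speak for the markers the filters left out, which had no test in the main setting. Among those, mean levels with CD and HFD were 3.91 and 0.0 for Tpbpa, 2.01 and -1.96 for Tpbpb, and 1.36 and -3.06 for Prl8a9. Of the markers left out, only Syna had overlapping groups, and the rest were lower with HFD. The paper lists Tpbpa, Tpbpb and Prl8a9 among its down-regulated genes. Of 15 gut, pancreas and lung markers tested, 3 fell past both cutoffs. These were the lung surfactant gene Sftpc (difference -2.54 ± 0.49, SE), the stomach gene Gkn1 (-1.27 ± 0.39, SE) and the lung factor gene Nkx2-1. Nkx2-1 was not well above background with HFD, and 2.69-fold lower there by the same substitution as for Cyp7a1. For this list summed levels were 22.8 and 17.9 with CD and 17.1 and 22.3 with HFD. Of 11 gonad and adrenal markers tested, 2 rose past both cutoffs, Cyp11a1 (1.87 ± 0.52, SE) and Nr5a1 (1.20 ± 0.30, SE). The median difference of the 11 was 0.78, and summed levels of the list were 39.8 and 55.2 with CD and 44.1 and 55.0 with HFD. Of 9 kidney markers tested, 1, not named here, rose past both cutoffs. The median difference of the 9 was 0.43, and summed levels of the list were 89.2 and 92.7 with CD and 113 and 105 with HFD. Of 11 neuron markers tested 0 passed, with a median of -0.59 and summed levels of 37.4 and 24.5 with CD and 18.4 and 27.2 with HFD. Several of the 8 factors are also expressed in such tissues, and the part of these tissues in the factor levels was not tested for any of the 8.

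The brightest markers of the cells that make up the fetal liver had differences between -0.26 and 0.30. Among erythroid genes the globins Hba-a1 and Hbb-bt, whose copies may share signal, each gave -0.09, and Slc4a1, the anion exchanger of the red cell, gave 0.27. The myeloid genes Mpo, Csf3r and Csf1r gave -0.07, 0.05 and 0.04, and the endothelial genes Nrp2, Stab1 and Stab2 gave 0.30, -0.26 and 0.22. Cd24a, Krt19 and Notch2 of the cholangiocyte list gave 0.23, -0.02 and 0.12. The brightest genes of the neighbouring tissues, in contrast to those that passed the cutoffs, included Cpa1 (-0.36), Cela1 (0.12) and Fabp2 (0.41) for gut and pancreas, Stmn2 (-0.43), Gap43 (-0.31) and Snap25 (-0.29) for neurons, Foxl2 (-0.31), Cyp17a1 (0.79) and Hsd3b1 (0.32) for gonad and adrenal, and Eya1 (0.25), Six2 (-0.06) and Cubn (0.64) for kidney, none past both cutoffs. Of the brightest trophoblast genes, Gcm1 gave 0.55, while Tpbpa read 3.01 and 4.80 with CD and 1.00 and -1.01 with HFD, and Prl3b1 was likewise higher on both CD arrays than on both HFD arrays. The filter on variable signal left both of the last out of the test.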

How the data were processed

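The authors hybridised Cy3-labelled cRNA to a mouse Agilent array and read it with Feature Extraction 11.0.1.1. They deposited per spot an intensity that was background-subtracted but not scaled between arrays, with flags, which are scores of 0 or 1, for outliers and for being well above background, and a table of normalized signal, which equals the intensity divided by 1 constant per array. From the intensities, outlier spots were left out, the log2 was averaged per probe, and the 75th percentile of non-control probes was subtracted. Of 56605 probes, 56596 had a spot without an outlier flag on every array. Of these, 14980 were left out for a level below the 20th percentile of at least 1 array, and 284 for a CV over 50% in both groups. Both limits are those in the study's methods, but there the CV is computed on log values. The linear CV used here departs from this and left out variable trophoblast genes. The log2 version was run as an alternative. The remaining 41332 were tested with limma 3.58.1 in R 4.3.3 (HFD minus CD, no covariates, Benjamini-Hochberg adjustment), after it was tested on simulated data. Transcripts were matched to RefSeq genes (GRCm38.p6), which named 32994 probes; probe coordinates are left out because the design of the array used a different build. A gene with several probes was represented by the brightest. Counts were made in pandas 2.3.3 (Python 3.11.15) and figures in matplotlib 3.10.9.

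Named genes were all members, from each list the genes past both cutoffs (up to 5) and the 3 brightest, and the 5 genes with the most similar pattern over the arrays; 2 genes under this rule or among the lists are not reported here. The members and lists were chosen with earlier results of these data known. The number of arrays limits the precision.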

Additional observations from a re-analysis of the deposited data

How the results depend on the processing

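The count of member probes past both cutoffs was 0 under all 13 alternatives run: quantile normalization, normexp background correction (offset 50, on median brightness), the deposited table, the CV of the log2 signal, no filter, a filter on signal well above background, the mean over the probes of a gene, the methods' t-test, the replicate block, and each array left out. At an unadjusted p of 0.05 alone it was 1 (the brighter Hnf4a probe) under normexp correction, the methods' t-test and without CD 2, and 0 otherwise. The median difference of the members was 0.09 to 0.16 under the alternatives with all arrays, and 0.04 to 0.23 when 1 array was left out, lowest without HFD 1. Non-overlapping members numbered 3 or 4 with all arrays and 5 to 7 with 1 array left out. With 1 array left out, non-overlap is easier to reach and the lone array is assumed to vary like the other group. The share of all probes without overlap was not counted there, so those 5 to 7 members cannot be read as an excess. Other hepatic factors and products past the cutoffs numbered 0 with all arrays and 0 to 2 with 1 left out.

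With 1 array left out the difference ran from -0.44 to 0.22 for Foxa3, -0.37 to 0.04 for Onecut1, -0.12 to 0.18 for Prox1, -0.06 to 0.30 for Foxa2 and -0.13 to 0.21 for the dimmer Hnf4a probe, and Prox1 was -0.02 under normexp correction; the cause was not tested. Same-numbered arrays did not deviate together (correlation of deviations -0.0997), and with the replicate number as a block the median difference of the members was 0.16 and 0 of their probes passed. A slide block was not run because all arrays share 1 slide. Every member probe was well above background, but the dimmer Hnf4a probe was fainter than the median spot of each array. All members are limited by the 2 arrays per group.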
